A study of Homo sapiens with 6 samples.

Results

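The 40 genes described here encode proteinases of the pericellular space and the proteins that hold them in check. They were chosen by name, with earlier results of these data known, from the 74852 genes of the deposited table, and every name was found there. They comprised 10 secreted matrix metalloproteinases (MMP1, MMP2, MMP3, MMP7, MMP9, MMP10, MMP11, MMP13, MMP19 and MMP28), 6 membrane-type MMPs (MMP14, MMP15, MMP16, MMP17, MMP24 and MMP25), 4 tissue inhibitors of metalloproteinases (TIMP1 to TIMP4), 7 ADAM and 8 ADAMTS proteinases, and 5 genes of the plasminogen activator system (PLAU, PLAUR, PLAT, SERPINE2 and ST14). The cells were MDA-MB-231, a human line of triple-negative breast cancer (TNBC) with a mesenchymal, invasive phenotype. Of 6 cultures, 3 received non-targeting siRNAs as a pool (si-CTRL) and 3 a pool directed at NEK2 (si-NEK2), a kinase of the centrosome and of mitosis. Both groups were transfected in 2 rounds and, by the sample records, collected 24 h after the second; the methods of the study give another harvest time, medium and RNA kit, so these details are uncertain. PolyA-selected RNA was sequenced from each culture. One cell line and one siRNA pool per group were used, so that loss of NEK2 and any other effect of the si-NEK2 pool cannot be told apart, and p-values measure the spread among these cultures of 1 line.

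Most of these enzymes are made as inactive precursors. Collagenases (MMP1 and MMP13), the stromelysin MMP3 and the gelatinases (MMP2 and MMP9) are secreted and cut collagens and other matrix proteins, whereas membrane-type MMPs such as MMP14 act at the cell surface, where MMP14 together with TIMP2 activates pro-MMP2. TIMPs block the active site of MMPs and, for some family members, of ADAMs. ADAMs are transmembrane sheddases that release growth factors, adhesion molecules and receptor ectodomains, and ADAMTS proteinases cut proteoglycans and process procollagens. Urokinase (PLAU), bound to its receptor (PLAUR) on the cell, turns plasminogen into plasmin, which degrades fibrin and can activate several pro-MMPs; this axis is a classical feature of invasive breast cancer cells.

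Libraries held from 52625492 to 87454509 reads on genes, and 1 read was worth from 0.818 to 1.25 normalized counts (reads divided by the size factor of the library). Pairs of libraries of 1 group differed by more than sampling noise, so none was a copy of another, and si-CTRL replicate 1 stood apart from the other control libraries on the second principal component, which held 16.2% of the variance. The silenced gene followed the labels: NEK2 (chr1:211831601-211848972 on hg19, as are all gene positions below) had 3702, 3323 and 3290.2 normalized counts in si-CTRL replicates 1 to 3 and 284, 362 and 388 in si-NEK2. Of the 5 mesenchymal markers listed for this line (VIM, CD44, AXL, ZEB1 and MSN) all 5 were expressed. Their summed level was 303187 to 371554 normalized counts in si-CTRL libraries and 253174 to 270113 in si-NEK2 libraries. By the thresholds given below, CD44 (log2 fold change -0.76, adjusted p = 0.00332, limma) and ZEB1 (-0.82, adjusted p = 3.40e-04, limma) were lower in si-NEK2. VIM, AXL and MSN did not pass. ESR1, PGR and CDH1 averaged at most 8.22 normalized counts in either group. The other 2 genes listed as low in this line were expressed, ERBB3 at 355 in si-CTRL and 314 in si-NEK2 and the luminal keratin KRT18 at 24840 and 24560. Of 5 leukocyte markers 1 averaged 10 normalized counts or more; their sum was 8.75 to 19.4 in si-CTRL and 18.1 to 34.4 in si-NEK2. The 3 endothelial markers summed to 49.4 to 76.2 in si-CTRL and 28.9 to 39.5 in si-NEK2, and of 4 fibroblast markers COL1A1 and PDGFRB were expressed, at 160257 and 710.1 normalized counts in si-CTRL, while DCN and LUM averaged at most 1.86. The part of these markers in the results was not tested. In a bulk culture a smaller share of cells that express a gene and less RNA of it per cell cannot be told apart.

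After NEK2 silencing, 13 of these genes fell and 5 rose. The genes that fell were MMP1, MMP3, MMP9, MMP13, MMP17, MMP19, TIMP1, ADAM8, ADAMTS1, ADAMTS6, ADAMTS10, PLAU and PLAUR, and those that rose were MMP16, MMP24, TIMP3, ADAM10 and ADAMTS15. A call required a limma p-value no larger than 0.05 and a 1.5-fold difference in either direction; adjusted p-values below are Benjamini-Hochberg values over all genes tested. Of the 40 genes, 35 averaged 10 normalized counts or more and entered the test; MMP7, MMP10, MMP11, TIMP4 and ADAMTS4 did not and are described at the end. The 18 regulated genes were 51.4% of the 35 tested, against a background of 22.5% of the 18717 genes tested in all. For genes that rose the background was 8.23% and for genes that fell 14.3%. When the same limit was put on the adjusted p-value, 18 were again called, against a background of 20.6%. Values of the groups did not overlap for 28 of the 35 tested genes, or 80%, against 55% of all tested genes. The median log2 fold change of the 35 genes was -0.27, against 0.01 over all tested genes, and the median of its absolute size was 0.60 against 0.325. Because the list was drawn up with earlier results of these data known, these differences from the background are described only and do not test for an excess. Leaving out si-CTRL replicate 1, the control library that stood apart, left 15 regulated genes; TIMP1, ADAM10 and ADAMTS10 then fell short of the fold threshold.

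**Figure D1:**
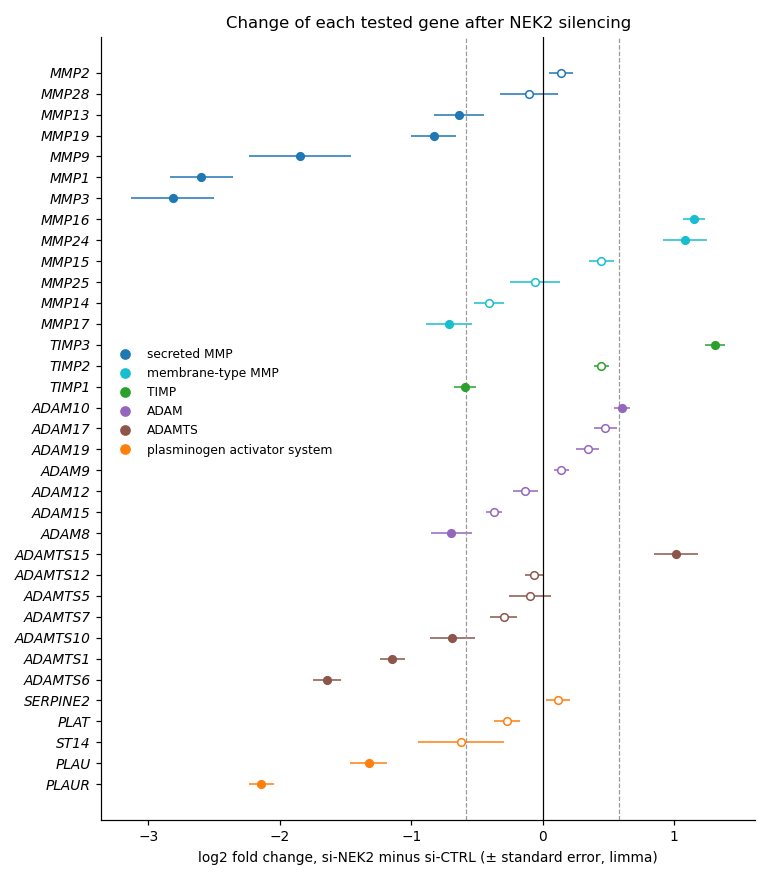
Log2 fold change of each of the 35 tested genes between si-NEK2 and si-CTRL (points) with its limma standard error (bars), coloured by role; filled points are the 18 regulated genes and dashed lines mark a fold change of 1.5. MMP3 (-2.81), MMP1, PLAUR, MMP9, ADAMTS6 and PLAU reach furthest to the left, and TIMP3 is furthest to the right at 1.31.

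Among the secreted MMPs, 5 of the 7 tested fell and none rose, or 71.4% called against 22.5% of all tested genes. MMP1, the interstitial collagenase (chr11:102660641-102671122), had 679.9, 356 and 682 normalized counts in si-CTRL and 84.3, 85.9 and 100.3 in si-NEK2. The lowest control, si-CTRL replicate 2, lay far above the highest NEK2-silenced library, and the means were 573 ± 187 and 90.1 ± 8.82 (SD, n = 3 each), the latter 15.7% of control. The log2 fold change was -2.60 (SE 0.240, adjusted p = 7.77e-05, limma). MMP3, stromelysin-1, which cuts proteoglycans and activates other pro-MMPs (chr11:102706528-102714420), had 114, 89.1 and 148 normalized counts in si-CTRL and 9.82, 21.7 and 17.1 in si-NEK2, where it rested on 12 to 24 reads per library. Its groups were also far apart, and its log2 fold change of -2.81 (SE 0.317, adjusted p = 2.09e-04, limma) was the lowest of all 35 genes.

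MMP9, the gelatinase that cuts collagen IV of basement membranes (chr20:44637547-44645199), had 79.99, 72.6 and 46.6 normalized counts in si-CTRL against 31.1, 15.4 and 10.7 in si-NEK2. It was scarce, and the highest silenced library, at 31.1, lay below the lowest control, at 46.6. The log2 fold change was -1.84 (SE 0.389, adjusted p = 0.00505, limma), and ranged from -2.25 to -1.52 as each library was left out in turn. MMP19 (chr12:56229214-56236767) went from 259.96, 227 and 199 to 102, 139 and 145 normalized counts, a log2 fold change of -0.83 (adjusted p = 0.00479, limma). TMEM198B, a more abundant row that overlaps MMP19, had a log2 fold change of -0.13. MMP13, collagenase-3 (chr11:102813721-102826463), went from 99.99, 87.2 and 119 to 64.6, 55.1 and 75.8, with no overlap of the groups. Its log2 fold change of -0.64 (SE 0.191, adjusted p = 0.0249, limma) lay close to the fold threshold and did not reach it when si-CTRL replicate 3 (-0.52) or si-NEK2 replicate 2 (-0.53) was left out, or after quantile scaling (-0.43).

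The gelatinase MMP2, which is abundant in stroma and activated at the cell surface, did not pass the test: it had 1262, 1066 and 1088 normalized counts in si-CTRL and 1198, 1223 and 1339 in si-NEK2. These ranges overlapped, and the log2 fold change of 0.14 (SE 0.093, adjusted p = 0.256, limma) was small. MMP28, epilysin, had 58.7, 64.9 and 54.2 against 63.8, 62.4 and 41.6 normalized counts, also with overlap (log2 fold change -0.10, adjusted p = 0.732, limma). Summed over the 10 secreted MMPs as normalized counts per kilobase of exon, the level was 784 ± 121 (SD, n = 3) in si-CTRL and 433 ± 21.5 (SD, n = 3) in si-NEK2, with no overlap. MMP1 made up 28.0% to 41.8% of that sum in the control libraries and 10.2% to 11.2% in the NEK2-silenced ones, where MMP2 was the most abundant, at 265 normalized counts per kilobase.

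MMP1, MMP3 and MMP13 belong to a row of 9 MMP genes on chromosome 11 that spans 435 kb (chr11:102391239-102826463, hg19). All 3 of its tested genes fell, whereas its other genes, MMP7, MMP8, MMP10, MMP12, MMP20 and MMP27, stayed below 10 normalized counts on average. Of the 9 tested genes within 1 Mb on either side, 2 were regulated, both on the MMP7 side: CEP126, a centrosomal protein, with a log2 fold change of -1.14 (SE 0.093, adjusted p = 4.28e-05, limma), and BIRC3, an inhibitor of apoptosis, with -0.99 (SE 0.118, adjusted p = 2.69e-04, limma). Over all tested genes 22.5% were regulated. BIRC2, the neighbour and relative of BIRC3, had -0.16 and YAP1 -0.08, and neither passed. The median log2 fold change of the 9 flanking genes was -0.16, with a range from -1.14 to 0.55. By these estimates MMP1 and MMP3 had larger decreases than any tested neighbour, while that of MMP13 was smaller than those of CEP126 and BIRC3. Differences between these genes were not tested.

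**Figure D2:**
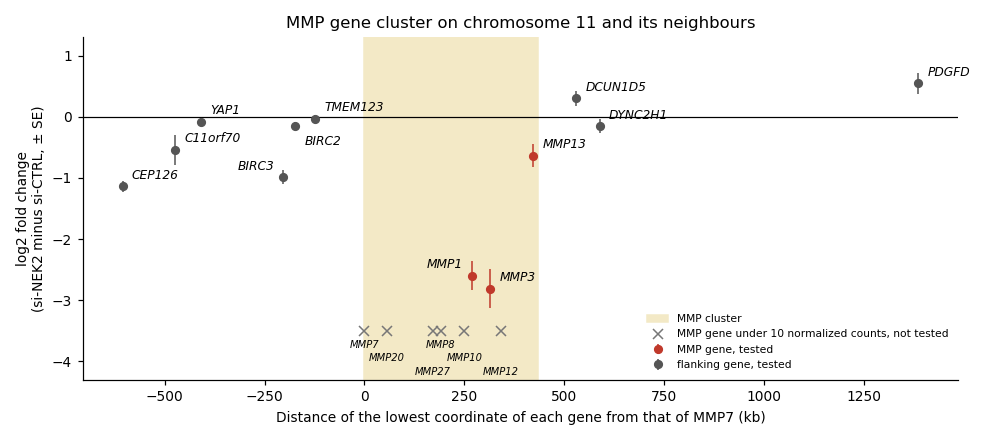
Log2 fold change (si-NEK2 minus si-CTRL, bars ± SE) of tested genes in the chromosome 11 MMP cluster (shaded) and within 1 Mb of it, against the distance in kb from MMP7; crosses mark cluster genes that were too scarce to test. MMP1 and MMP3 lie below -2.5, and 7 of the 9 flanking genes were not regulated.

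The membrane-type MMPs did not move in one direction: 2 of 6 rose, 1 fell and 3 did not pass. Those called were 50%, against 22.5% of all tested genes. MMP16, a transmembrane enzyme that can activate pro-MMP2, had 1247, 1168 and 1138 normalized counts in si-CTRL and 2418, 2706 and 2788 in si-NEK2. Each NEK2-silenced library was far above every control, with a 2.23-fold mean level and a log2 fold change of 1.15 (SE 0.082, adjusted p = 2.29e-05, limma). MMP24, another transmembrane member known mainly from neural tissue (chr20:33814537-33864804), had 207, 210.2 and 148 against 369.9, 363 and 464 normalized counts, a log2 fold change of 1.09 (SE 0.167, adjusted p = 0.001, limma). A more abundant row that overlaps it, named for EDEM2 and MMP24-AS1, had a log2 fold change of -0.05. MMP17, which is held in the membrane by a glycolipid anchor (chr12:132312938-132336329), went the other way, from 135, 147 and 139 to 94.9, 96.7 and 67.2 normalized counts (log2 fold change -0.71, SE 0.175, adjusted p = 0.0105, limma). It fell short of the fold threshold without si-NEK2 replicate 3 (-0.54) and after quantile scaling (-0.52).

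MMP14, the main cell-surface collagenase and activator of pro-MMP2 (chr14:23305742-23316970), was by far the most abundant MMP and fell short of the fold threshold. It had 43705, 31011 and 36950.2 normalized counts in si-CTRL and 27512, 26507 and 29353 in si-NEK2. The groups did not overlap, and the mean in si-NEK2 was 74.7% of that in si-CTRL, with a log2 fold change of -0.41 (SE 0.115, adjusted p = 0.0188, limma). The neighbouring row DAD1, which overlaps it, had a log2 fold change of 0.31. In normalized counts per kilobase, MMP14 made up 87.8% to 90.3% of the summed level of all 16 MMPs in each library, and that sum was 11126 ± 1827 (SD, n = 3) in si-CTRL and 8454 ± 419 (SD, n = 3) in si-NEK2. MMP15 had 677, 594 and 634 against 938, 803 and 861 normalized counts, a difference past the adjusted p-value but below the fold threshold (log2 fold change 0.45, adjusted p = 0.0053, limma). MMP25, a glycolipid-anchored enzyme best known from leukocytes, had overlapping values of 74.99, 76.5 and 61.8 and 77.7, 71.4 and 56.5 (log2 fold change -0.06, adjusted p = 0.831, limma). MMP25-AS1, a more abundant row that overlaps it, had a log2 fold change of -0.18.

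**Figure D3:**
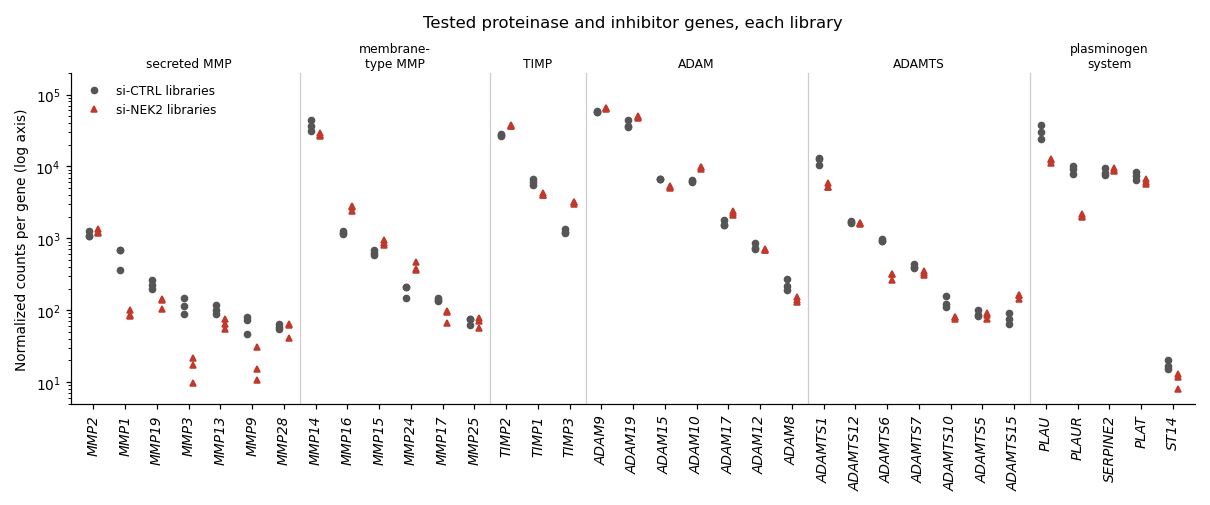
Normalized counts of the 35 tested genes in each of the 3 si-CTRL libraries (grey circles) and 3 si-NEK2 libraries (red triangles), on a log axis and ordered within each role by the si-CTRL mean; gene lengths differ, so heights compare libraries and not genes. The groups separate clearly for MMP1, MMP3, ADAMTS6 and PLAUR below control and for MMP16 and TIMP3 above it.

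The inhibitors split. TIMP3, which binds the matrix and inhibits ADAM and ADAMTS enzymes as well as MMPs (chr22:33196802-33259027), had 1349.8, 1177 and 1242 normalized counts in si-CTRL and 3034, 3169 and 3163 in si-NEK2. Its mean was 2.49-fold the control, the largest rise of the 35 genes, with a log2 fold change of 1.31 (SE 0.076, adjusted p = 8.41e-06, limma). TIMP1, a secreted inhibitor that binds pro-MMP9 (chrX:47441690-47446189), had 6747, 5534 and 6161 against 3999, 3979 and 4236 normalized counts and no overlap between groups. Its log2 fold change of -0.59 (SE 0.082, adjusted p = 6.14e-04, limma) sat on the fold threshold and missed it when si-CTRL replicate 1 (-0.52), si-NEK2 replicate 1 (-0.58) or si-NEK2 replicate 2 (-0.57) was left out. TIMP2, the partner of MMP14 in the activation of pro-MMP2 (chr17:76849067-76921472), had 28232, 27169.5 and 26098 in si-CTRL and 37003, 36852 and 37222 in si-NEK2, higher in every silenced library but below the threshold (log2 fold change 0.45, SE 0.059, adjusted p = 4.47e-04, limma). Summed over the 4 TIMPs per kilobase of exon, the level was 11158 ± 607 (SD, n = 3) in si-CTRL and 12558 ± 149 (SD, n = 3) in si-NEK2, and the share of TIMP2 in it was 58.5% to 62.2% in control libraries and 71.8% to 72.8% in silenced ones.

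Ratios of gene pairs within a library, which do not depend on how libraries are scaled, were compared for 5 pairs. MMP14 to TIMP2 stood at 1.55, 1.14 and 1.42 in si-CTRL and at 0.744, 0.719 and 0.789 in si-NEK2, a difference of -0.86 on the log2 scale. MMP1 to TIMP1 stood at 0.101, 0.0646 and 0.111 against 0.0213, 0.0218 and 0.0239, a log2 difference of -2.01. Both ratios were lower in every silenced library than in every control. With 3 libraries against 3 the exact permutation test cannot go below p = 0.1, and both gave p = 0.1 (two-sided, 0.125 after Benjamini-Hochberg adjustment over the 5 pairs), so that no pair could pass.

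**Figure D4:**
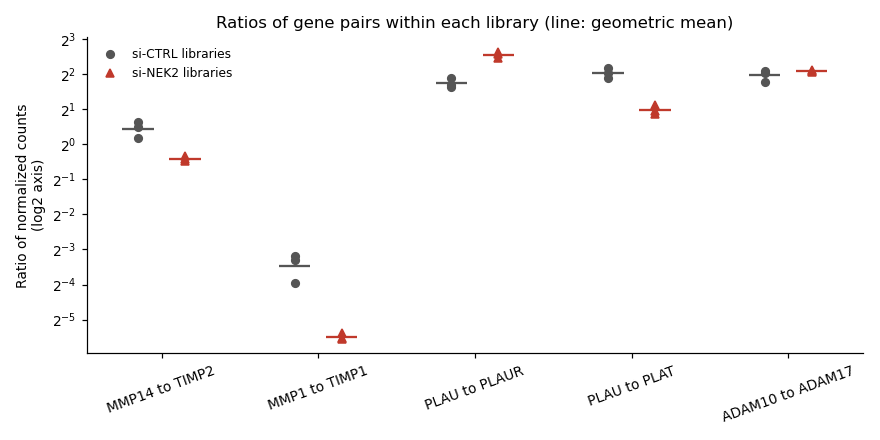
Ratio of normalized counts of 5 gene pairs within each library (log2 axis), with the geometric mean of each group as a line; ratios are not corrected for gene length and compare libraries only. The groups separate for 4 of the 5 pairs, with MMP14 to TIMP2, MMP1 to TIMP1 and PLAU to PLAT lower in si-NEK2.

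Of the 7 ADAM genes 1 rose and 1 fell, or 28.6% called against 22.5% of all tested genes. ADAM10, the main sheddase of Notch receptors and of E- and N-cadherin (chr15:58887403-59042186), had 6153, 6347 and 6446 normalized counts in si-CTRL and 9177, 9732 and 9854 in si-NEK2. The libraries of each group were close together and far from the other group, with a log2 fold change of 0.60 (SE 0.061, adjusted p = 1.24e-04, limma). It was just above the fold threshold and below it with upper quartile (0.54), equal total (0.47) or quantile scaling (0.50), and also without si-CTRL replicate 1 or si-NEK2 replicate 3 (0.58 each). ADAM17, which sheds TNF and EGF receptor ligands, had 1784, 1551 and 1512 against 2104, 2272 and 2363 normalized counts, a log2 fold change of 0.48 (SE 0.088, adjusted p = 0.00254, limma) below the fold threshold. The ratio of ADAM10 to ADAM17 ranged from 3.45 to 4.26 in si-CTRL and from 4.17 to 4.36 in si-NEK2, and these ranges overlapped (log2 difference 0.12, exact permutation p = 0.2, two-sided).

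ADAM8, a sheddase first known from leukocytes (chr10:135075907-135090407), fell from 219, 193 and 269.99 to 151, 137 and 129 normalized counts (log2 fold change -0.69, SE 0.153, adjusted p = 0.00633, limma). The call was lost without si-CTRL replicate 3 (-0.56) and after quantile scaling (-0.52). An unnamed row that overlaps ADAM8 had a log2 fold change of -0.83. Smaller differences past the adjusted p-value, but not the fold threshold, were seen for ADAM15 (-0.37, adjusted p = 0.0012, limma) and ADAM19 (0.34, adjusted p = 0.0132, limma). The more abundant row SHC1, which overlaps ADAM15, had a log2 fold change of -0.26, and a scarcer unnamed one -0.87. ADAM9, the most abundant gene of the ADAM group per kilobase, was at 57135, 57375 and 59703 normalized counts in si-CTRL and 62596, 65220.1 and 64428 in si-NEK2. Its groups did not overlap although they differed by a log2 fold change of only 0.14 (SE 0.058, adjusted p = 0.0786, limma), and quantile scaling turned the sign (-0.11). ADAM12 had -0.13 (adjusted p = 0.299, limma).

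In the ADAMTS group 3 of the 7 tested genes fell and 1 rose, or 57.1% called against 22.5% of all tested genes. ADAMTS6 (chr5:64444564-64777747), a relative of ADAMTS10 that acts on microfibrils, had 907, 905 and 992 normalized counts in si-CTRL and 264, 319 and 317 in si-NEK2. The mean in si-NEK2 was 32.1% of control and no library came near the other group, with a log2 fold change of -1.64 (SE 0.106, adjusted p = 1.48e-05, limma). ADAMTS1, a versican- and aggrecan-cutting enzyme and the most abundant of the group per kilobase (chr21:28208608-28217728), had 12561, 10386 and 12988 against 5198, 5215 and 5807 normalized counts, or 45.1% of control by the means (log2 fold change -1.14, SE 0.095, adjusted p = 4.65e-05, limma). ADAMTS10, a fibrillin-binding member (chr19:8645126-8675620), went from 157, 123 and 109 to 76.1, 81.3 and 81.1 normalized counts (log2 fold change -0.69, SE 0.171, adjusted p = 0.0113, limma) and missed the fold threshold without si-CTRL replicate 1 (-0.54), its highest control, and after quantile scaling (-0.46).

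ADAMTS15, a versican-cleaving enzyme (chr11:130318863-130346540), rose from a low level, 76.2, 90.1 and 64.6 normalized counts in si-CTRL, to 163, 141 and 163 in si-NEK2, a log2 fold change of 1.02 (SE 0.167, adjusted p = 0.00142, limma). ADAMTS5, an aggrecanase that lies beside ADAMTS1 on chromosome 21 (chr21:28290232-28339439), had overlapping values of 86.2, 83.3 and 101 and 85.9, 91.3 and 75.8 (log2 fold change -0.09, SE 0.162, adjusted p = 0.673, limma). The neighbours ADAMTS1 and ADAMTS5 thus had different calls in the same libraries; the difference between them was not tested. ADAMTS12, a more abundant member, overlapped between groups as well (-0.06, adjusted p = 0.498, limma). ADAMTS7 had a log2 fold change of -0.30 (adjusted p = 0.045, limma), and the far more abundant row MORF4L1, which overlaps it, one of 0.65.

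In the plasminogen activator system 2 of the 5 genes fell, both of them abundant in control cells, and none rose. Those called were 40%, against 22.5% of all tested genes. PLAUR, the urokinase receptor, a glycolipid-anchored protein that holds urokinase on the cell (chr19:44150248-44174699), had 10155, 7836 and 9202 normalized counts in si-CTRL and 2015.6, 1964 and 2162 in si-NEK2. The means were 9065 ± 1165 and 2047 ± 103 (SD, n = 3 each), the latter 22.6% of control, with the lowest control far above the highest silenced library. The log2 fold change was -2.14 (SE 0.098, adjusted p = 4.16e-06, limma). PLAU, urokinase itself (chr10:75670859-75677259), had 37314, 24225 and 29921 normalized counts in si-CTRL and 11066, 12264 and 12744 in si-NEK2. Controls varied among themselves more than silenced libraries did, without overlap, and the means were 30487 ± 6563 and 12025 ± 864 (SD, n = 3 each). The log2 fold change was -1.32 (SE 0.139, adjusted p = 1.52e-04, limma). C10orf55, a scarcer row that overlaps PLAU, had -0.83.

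The other plasminogen activator, the tissue-type PLAT, differed less, with 8278, 6527 and 7376 normalized counts in si-CTRL and 6114, 5633 and 6614 in si-NEK2. One silenced library, replicate 3, exceeded si-CTRL replicate 2, and the log2 fold change of -0.27 (SE 0.098, adjusted p = 0.0537, limma) did not pass. The ratio of PLAU to PLAT was accordingly lower in si-NEK2, at 1.81, 2.18 and 1.93 against 4.51, 3.71 and 4.06. SERPINE2, protease nexin-1, an inhibitor of thrombin and of plasminogen activators, had overlapping values of 9371, 7557 and 8174 and 8574, 8972 and 9619 (log2 fold change 0.12, SE 0.089, adjusted p = 0.318, limma). ST14, matriptase, an epithelial membrane serine proteinase that can activate pro-urokinase, was barely expressed, with 19.997, 16.5 and 15.2 against 13.1, 8.13 and 11.7 normalized counts (log2 fold change -0.62, SE 0.329, adjusted p = 0.163, limma).

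Further members of the pathway were read from a list of 13 genes, of which 10 were tested, 1 fell and 2 rose. Of the tested genes 30% were thus called, against 22.5% over all genes tested. The gene that fell was SERPINB2, plasminogen activator inhibitor 2, an inhibitor of urokinase, which had 2752, 2416 and 4043 normalized counts in si-CTRL against 277, 306 and 305 in si-NEK2 (log2 fold change -3.34, SE 0.170, adjusted p = 5.33e-06, limma). Enzyme, receptor and this inhibitor were all lower in si-NEK2. The ratio of PLAU to PLAUR was 3.67, 3.09 and 3.25 in si-CTRL and 5.49, 6.24 and 5.89 in si-NEK2. This ratio and that of PLAU to PLAT separated the groups, each with an exact permutation p of 0.1 (two-sided, 0.125 adjusted), the smallest possible for 3 against 3. The genes that rose were S100A10, a cell-surface plasminogen receptor with its partner ANXA2, from 10879.8, 11880.1 and 12355 to 20789, 21062 and 19293 normalized counts (log2 fold change 0.80, adjusted p = 6.28e-05, limma), and SPINT2, an inhibitor of matriptase-like proteinases, from 43.7, 55.2 and 89.4 to 120.3, 110.3 and 115 (0.93, adjusted p = 0.0155, limma). Plasminogen itself (PLG) was listed at 0 in all 6 libraries.

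**Figure D5:**
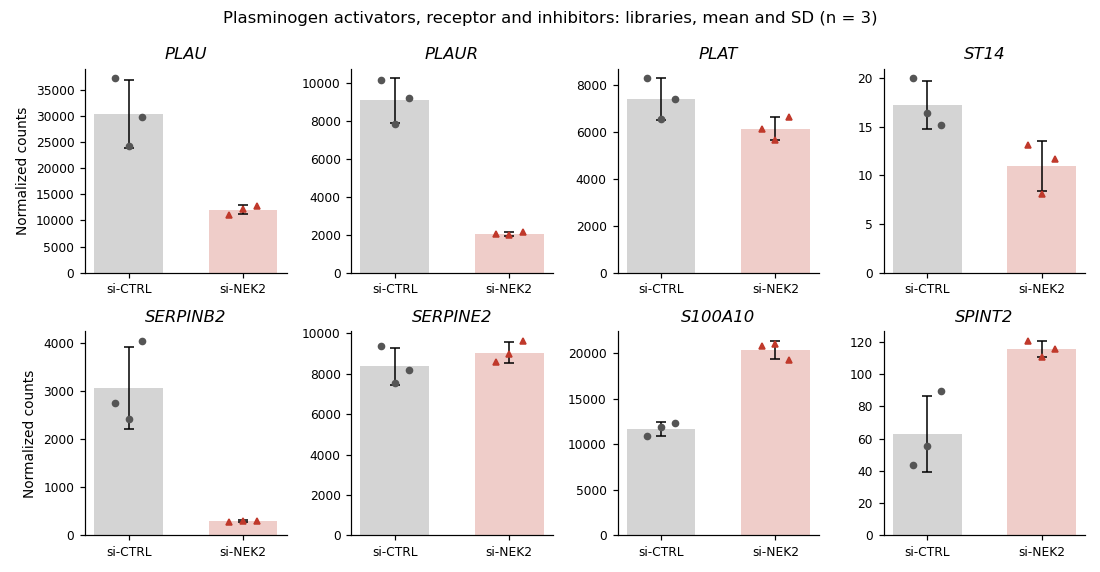
Normalized counts of 8 genes of the plasminogen activator system in each library (points), with group means (bars) and SD (n = 3); each panel has its own axis from 0. PLAU, PLAUR, SERPINB2 and the scarce ST14 are lower in every si-NEK2 library than in any control, S100A10 and SPINT2 are higher, and PLAT and SERPINE2 overlap.

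Promoter windows, from 250 bases before to 50 bases after the start of a gene, were available for 22 of the 40 genes in a RefSeq table (build GRCh38.p14) of 35114 promoters. Those of MMP1, MMP2, MMP3, MMP9, MMP13, MMP16, MMP17, MMP19, MMP25, MMP28, TIMP2, ADAM9, ADAMTS1, ADAMTS4, ADAMTS5, ADAMTS15, PLAT and ST14 were not analysed here. The 22 windows were searched on both strands for 4 motifs, which may overlap each other. The AP-1 motif TGANTCA, a loose form, with a free middle base, of the recognition sequence of Fos and Jun dimers, was held by 7.71% of all promoters. It was held by 4 of the 22, as TGAGTCA in PLAUR and MMP7 and as TGAATCA in ADAMTS12 and MMP10. The TATA box TATAAA was held by 11.5% of all promoters and by 3 of the 22, those of MMP7, MMP10 and ADAMTS10. The GC box GGGCGG was held by 45% of all promoters and by 16 of the 22, and a loose NF-kB motif (GGG and CC with 5 free bases between them) by 58.7% and by 17 of the 22. Of the 6 genes with a window that fell, 1 held the AP-1 motif, and none of the 3 that rose did; all 3 of the latter (TIMP3, ADAM10 and MMP24) held a GC box, as did 3 of the 6 that fell and 8 of the 9 that were tested and not called. A match describes letters in the window only. The windows below are those of PLAUR, the gene with the lowest adjusted p-value of the 35, and of MMP7 and MMP10, which share the cluster of MMP1 but were hardly expressed, with the AP-1 match in capitals; that of TIMP3, the gene with the largest rise, has its GC boxes in capitals.
PLAUR promoter (chr19:43670120-43670419, minus strand): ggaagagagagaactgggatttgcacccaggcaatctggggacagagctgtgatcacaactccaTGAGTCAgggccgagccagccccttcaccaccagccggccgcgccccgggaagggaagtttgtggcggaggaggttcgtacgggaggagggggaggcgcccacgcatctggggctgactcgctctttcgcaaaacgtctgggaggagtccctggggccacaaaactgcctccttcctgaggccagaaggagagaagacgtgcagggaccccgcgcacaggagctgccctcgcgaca
MMP7 promoter (chr11:102530698-102530997, minus strand): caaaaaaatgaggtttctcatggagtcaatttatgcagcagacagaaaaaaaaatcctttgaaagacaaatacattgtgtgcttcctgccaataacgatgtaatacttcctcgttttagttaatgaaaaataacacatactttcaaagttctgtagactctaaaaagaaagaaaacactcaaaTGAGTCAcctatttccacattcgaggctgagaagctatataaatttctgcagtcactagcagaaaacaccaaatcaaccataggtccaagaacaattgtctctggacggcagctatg
MMP10 promoter (chr11:102780579-102780878, minus strand): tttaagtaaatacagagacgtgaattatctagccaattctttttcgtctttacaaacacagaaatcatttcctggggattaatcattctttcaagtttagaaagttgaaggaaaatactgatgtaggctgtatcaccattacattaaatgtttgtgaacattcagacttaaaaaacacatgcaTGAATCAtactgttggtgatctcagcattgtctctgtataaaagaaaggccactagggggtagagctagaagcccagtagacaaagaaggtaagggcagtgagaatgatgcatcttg
TIMP3 promoter (chr22:32801455-32801754, plus strand): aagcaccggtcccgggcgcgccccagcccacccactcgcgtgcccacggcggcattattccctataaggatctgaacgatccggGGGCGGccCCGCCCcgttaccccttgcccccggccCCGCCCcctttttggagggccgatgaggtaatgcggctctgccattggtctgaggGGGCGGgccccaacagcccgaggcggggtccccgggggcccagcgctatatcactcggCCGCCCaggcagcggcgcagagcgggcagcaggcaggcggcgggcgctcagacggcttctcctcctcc

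In the PLAUR window the AP-1 match began 186 bases before the start of the gene. In those of MMP7 and MMP10 it began 67 bases before it, with a TATA box at 30 and 31 bases before it. The TIMP3 window had 5 GC boxes and no AP-1 match. MMP7 and MMP10, each with a TATA box and a match to the loose AP-1 motif (TGAGTCA and TGAATCA), had at most 10 and 7 reads in any library. No change of theirs was thus detectable at this depth.

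Levels of different genes were compared per kilobase of exon. In si-CTRL the order of the means was PLAU at 11346 ± 2442 normalized counts per kilobase (SD, n = 3), MMP14 at 9974 ± 1702 and ADAM9 at 9789 ± 239. Differences between genes within a library were not tested. TIMP2 followed at 6667 ± 262, then ADAM19 at 5496 ± 674, TIMP1 at 4213 ± 416 and PLAUR at 4120.3 ± 529.7. In si-NEK2, ADAM9 stood first at 10803 ± 227, then TIMP2 at 9086 ± 45.7, MMP14 at 7447 ± 387 and ADAM19 at 6941 ± 244. PLAU was the fifth, at 4475 ± 322, and PLAUR moved from rank 7 to rank 11, at 930.5 ± 46.6.

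Of 32 other members of the metalloproteinase families, 13 were tested, and of these none rose and 5 fell (38.5%, against 22.5% of all tested genes called). They were ADAM11 (-0.80, adjusted p = 0.00424, limma), a catalytically inactive member known from neural tissue; ADAMTS13 (-0.61, adjusted p = 0.0123, limma), which cuts von Willebrand factor; ADAMTS14 (-0.84, adjusted p = 8.78e-04, limma), a procollagen N-proteinase; ADAMTS17 (-0.87, adjusted p = 0.00673, limma); and ADAMTS18. The last was scarce, at 26.2, 24.2 and 9.51 normalized counts in si-CTRL and 0.818, 4.52 and 0 in si-NEK2, and its log2 fold change of -3.16 (adjusted p = 0.00697, limma) depends on the pseudocount, with a range from -4.61 to -1.86 over the alternatives. Of 15 genes that act on the maturation or trafficking of these enzymes, 14 were tested and 14.3% of them called, against 22.5% of all tested genes. Only TSPAN15, a tetraspanin that escorts ADAM10 (0.61, adjusted p = 1.85e-04, limma), and TSPAN33, of the same tetraspanin subfamily (0.64, adjusted p = 0.0127, limma), were called, both higher in si-NEK2. FURIN, which activates membrane-type MMPs and ADAMs by cleavage, did not pass (0.22, adjusted p = 0.0844, limma), nor did RECK, a membrane inhibitor of MMPs (-0.37, adjusted p = 0.0575, limma); both, like PLG above, were singled out after their values were seen. Over the alternatives the log2 fold change went down to 0.49 for TSPAN15 and 0.51 for TSPAN33, and that of ADAMTS13 up to -0.46, all short of the fold threshold.

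The 5 genes that were not tested had few reads in every library. MMP7, matrilysin, had 2, 8 and 6 reads in si-CTRL and 10, 0 and 2 in si-NEK2. MMP10, stromelysin-2, had 5, 6 and 6 against 4, 7 and 2, and MMP11, stromelysin-3, 0, 6 and 8 against 0, 2 and 4. TIMP4 had 6, 5 and 12 against 0, 8 and 8, and ADAMTS4, an aggrecanase, 2, 8 and 8 against 6, 2 and 0. Their groups overlapped, and at this depth no difference was detectable.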

How the data were processed

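PolyA-selected RNA of 3 si-CTRL and 3 si-NEK2 cultures was sequenced (TruSeq Stranded mRNA). The authors deposited 1 table with a signal for each gene and library, that is reads divided by a DESeq2 size factor, with FAST DB annotation and hg19 coordinates and replicates not pooled. The submitters' processing notes name STAR 2.4.0, SAMtools, Picard, FastQC and DESeq2; the counter and its use of strand are not given in the sources used here, so reads of overlapping genes cannot be told apart. Another tested row overlapped 15 of the 35 tested genes described here, 7 of them regulated, and only some of these rows are named above. Columns of the authors' own comparison (fold changes and p-values) were not used. Groups came from the sample records.

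The test covered genes averaging 10 normalized counts or more and used limma 3.58.1 in R 4.3.3 (lmFit, eBayes with trend) on log2(value + 1); this scale understates the change of scarce genes. Calls required a p-value no larger than 0.05 and a 1.5-fold difference, as in the study's own methods, and p-values were adjusted over all 18717 tested genes. Of the values, 100% were whole multiples of 1 read (tolerance 0.1 read), so edgeR 4.0.16 and DESeq2 1.42.0 were run on recovered reads as alternatives, with other pseudocounts (0.1 and 5), filters, scalings, variance models and thresholds, a replicate block, and each library left out. On simulated data (200 of 18717 genes changed, all by at least 2-fold, same design) limma recovered 96% of changed genes and called 1.25% of unchanged ones. Changes between 1.5-fold and 2-fold were not simulated, so their recovery is not known. Levels per kilobase use the union of exons of GENCODE v29 basic, matched by symbol. All 40 genes are named; of the further lists, those called with an adjusted p of at most 0.05. The members and lists were chosen with earlier results of these data known. Read totals give the depth; counting error is only part of the spread between cultures. One planned gene and the ratio that used it are not reported here, and p-values of ratios were adjusted over the remaining 5. Protein sequences were not analysed here.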

Additional observations from a re-analysis of the deposited data

How the results depend on the processing

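The count of regulated genes was 18 in the reported fit, 18 with edgeR, DESeq2, either other pseudocount, no filter or a Benjamini-Hochberg adjusted p, 13 after quantile scaling and 15 to 18 as each library was left out. Over all 18717 tested genes limma called 4213, edgeR 4205 and DESeq2 4039. After quantile scaling 3981 of them were called, and 3913 to 4436 as each library was left out. Pseudocounts of 0.1 and 5 gave 4208 and 4131, and without a filter 5362 of 33327 genes were called. At a fold change of at least 2, 11 genes were regulated and 7 were lower. The share of all tested genes at that threshold was not counted, so these counts have no background. MMP19 was among the regulated genes that missed that stricter threshold. At a 1.5-fold difference, the 12 genes called under every alternative that tested them were MMP1, MMP3, MMP9, MMP16, MMP19, MMP24, TIMP3, ADAMTS1, ADAMTS6, ADAMTS15, PLAU and PLAUR; MMP13, MMP17, TIMP1, ADAM8, ADAM10 and ADAMTS10 missed the fold threshold under some. A filter of 50 normalized counts left MMP9 untested, and without an intensity trend ST14 also passed (adjusted p = 0.0481, limma). Of 593 values of single genes under alternatives, 568 kept direction and call and 7 changed sign, none of a regulated gene. After quantile scaling the log2 fold change was 0.14 for MMP25, 0.0778 for MMP28, -0.11 for ADAM9 and 0.13 for ADAMTS5, and with equal totals it was -0.0101 for SERPINE2. As single libraries were left out, MMP25 ranged from -0.15 to 0.0729 and MMP28 from -0.21 to 0.0924. Equal totals moved the median log2 fold change of all tested genes from 0.01 to -0.11 and the split of regulated genes from 1541 higher and 2672 lower to 942 and 3474, with 4 higher and 13 lower among the genes described here. The cause of these changes was not tested.

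Same-numbered libraries of the groups were not clearly correlated: correlations of their deviations were -0.09, 0.05 and -0.15. With 3 libraries per group these values cannot settle whether cultures were set up in pairs. With the replicate block 18 genes were regulated (5 higher and 13 lower), and no call changed. Over all 18717 tested genes this fit called 4084, 1499 higher and 2585 lower. Scarce genes (MMP3, MMP9 and ST14) rest on few reads, and the search for sequence features of the proteins was not run.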
